A study of Mus musculus and Homo sapiens with 180 samples.

Results

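The comparison set 2 leukaemia drugs directly against each other in MOLM13 control cells: SGC0946, an inhibitor of the histone methyltransferase DOT1L, and VTP50469, an inhibitor of the chromatin adaptor Menin. It used 6 of the 180 samples of the series, 3 libraries per drug, chosen by their labels. MOLM13 is a human acute myeloid leukaemia line that carries the MLL-AF9 fusion, and the control cells were, per the methods, a polyclonal Cas9-expressing population with a control guide RNA. The cells had been treated with 5 µM SGC0946 for 72 h or with 500 nM VTP50469 for 48 h, so the inhibitor, its dose and its duration cannot be told apart in any difference given here. The 3 control libraries treated with DMSO, the solvent, for 72 h served as the reference level. PCGF1 KO and BCOR KO cells of the same line, in which a subunit of the Polycomb complex PRC1.1 was targeted, and MV4;11 control cells, a second leukaemia line with an MLL fusion (MLL-AF4), had received both inhibitors at the same doses and times, and all of these populations carried Cas9. The library names give a single guide for each MOLM13 knockout. Loss of the gene therefore cannot be told apart from an effect of that guide or cell population. MV4;11 PCGF1 KO cells given both inhibitors shared the model of the MV4;11 control cells, and no contrast of them is reported.

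MLL fusion proteins hold a set of developmental genes, among them the HOXA cluster and MEIS1, in an active state in acute leukaemia. Menin tethers the MLL protein and its fusions to chromatin, and DOT1L, which is recruited by partners of the fusions, methylates lysine 79 of histone H3 along the transcribed gene body. PRC1.1 is a repressive Polycomb complex that is brought to unmethylated CpG-rich promoters by its KDM2B subunit and ubiquitinates histone H2A there. Both inhibitors are known to lower MLL target genes and to let MLL-rearranged cells mature along the myeloid lineage. The direct contrast asks how far the responses to the drugs differ.

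Expression was read from 3′ RNA-seq, which counts tags near the end of each transcript, so that a count does not grow with gene length. Levels are in CPM, a gene's share of the gene-assigned reads of its library, scaled by TMM factors, and a log2 fold change (log2FC) above 0 means a higher level with SGC0946 than with VTP50469. A gene was called when its Benjamini-Hochberg adjusted p in edgeR's quasi-likelihood test was under 0.05. The 6 libraries held 5356846 to 5851083 gene-assigned reads, and a further 38.6 to 41.1% of reads fell on no gene. Among the 27 MOLM13 libraries of the model, 1 stood apart: DMSO control replicate 2 had 48.6% of its reads off genes, and results that rest on it are also given without it. Across all tested genes, 2 libraries of the same drug correlated at a Pearson r of 0.986 to 0.987 and libraries of different drugs at 0.981 to 0.987. Among markers of other cell types, 14 or 15 of 21 erythroid and megakaryocyte markers had no read with a given drug, as had 9 or 12 of 22 lymphoid markers, with HBA1, HBB, MS4A1 and CD3E at 0 in all 6 libraries. The summed level of the erythroid and megakaryocyte markers was 274.5 to 292.3 CPM with SGC0946 and 258.3 to 277.3 CPM with VTP50469, and that of the lymphoid markers 89.0 to 98.2 CPM and 105 to 113 CPM. Only 2 erythroid and megakaryocyte markers and 5 lymphoid markers had levels high enough to be tested. CD4 was among the lymphoid ones (log2FC -0.39, adjusted p = 0.066). The lymphoid sum moved with the drug, and its part in the results was not tested.

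The promoters of 3 called genes are given as examples and were not picked to represent their groups. Each is printed as the 250 bases before the start of the gene's main GENCODE v44 transcript in GRCh38, 5′ to 3′ on the gene's strand, with CpG dinucleotides in capitals. MEIS1 (chr2:66434875-66435124, plus strand) was a shared MLL target that stayed higher with SGC0946. HOXA9 (chr7:27165538-27165787, minus strand) was lower with SGC0946. INHBA (chr7:41703091-41703340, minus strand) was higher with SGC0946 and has a start site that is almost free of CpG.
MEIS1: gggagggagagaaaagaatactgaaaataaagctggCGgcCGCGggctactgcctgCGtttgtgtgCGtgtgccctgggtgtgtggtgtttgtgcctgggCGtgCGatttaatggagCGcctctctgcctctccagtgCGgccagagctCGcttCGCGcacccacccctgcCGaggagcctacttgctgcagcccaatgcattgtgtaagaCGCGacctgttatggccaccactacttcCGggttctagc
HOXA9: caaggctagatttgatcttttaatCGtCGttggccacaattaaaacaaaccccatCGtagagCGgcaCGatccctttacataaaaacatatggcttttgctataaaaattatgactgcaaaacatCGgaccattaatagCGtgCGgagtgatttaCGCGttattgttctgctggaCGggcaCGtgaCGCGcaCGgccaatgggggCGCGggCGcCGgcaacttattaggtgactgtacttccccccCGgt
INHBA: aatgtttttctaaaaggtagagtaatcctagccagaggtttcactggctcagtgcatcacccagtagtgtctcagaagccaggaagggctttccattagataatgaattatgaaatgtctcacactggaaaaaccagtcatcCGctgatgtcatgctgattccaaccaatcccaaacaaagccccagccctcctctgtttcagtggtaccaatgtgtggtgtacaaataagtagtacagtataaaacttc
These windows held 16, 20 and 1 CpG in the order printed, and the ratio of observed to expected CpG was 0.723, 1.34 and 0.088. Of the genes called higher with SGC0946, 78.9% had a ratio above 0.6 in this window, against 60% of those called lower and 79.9% of all tested genes, so the higher genes did not stand out from the rest by this measure.

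Few genes separated the 2 inhibitors in these cells, and most of the genes that separated them were higher with SGC0946. In the direct contrast 171 of 12140 tested genes were called, which is 1.41% of them, while 1249 genes had an unadjusted p under 0.05. Of these, 124 genes (1.02%) were higher and 47 (0.387%) were lower with SGC0946. For scale, 1578 genes (13%) were called between SGC0946 and DMSO, and 2000 genes (16.5%) between VTP50469 and DMSO. In all 171 called genes the 3 libraries of one drug lay wholly above the 3 of the other, a separation seen in 2100 (17.3%) of all tested genes. The number called fell to 113 and 109 without SGC0946 replicate 2 or 3, to 112, 110 and 111 without VTP50469 replicate 1, 2 or 3, and rose to 217 without DMSO replicate 2, which enters this contrast through the estimate of spread alone. Without that library 1388 genes were called between SGC0946 and DMSO and 1809 between VTP50469 and DMSO, and without SGC0946 replicate 3 the first was 1044.

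The genes that were higher with SGC0946 lay below the typical level of the tested genes, and the ones that were lower lay above it. The median level with DMSO was 18.1 CPM over all tested genes. The median level of the 124 higher genes was 10.2 CPM with DMSO, 11.3 CPM with SGC0946 and 4.61 CPM with VTP50469, and 57 of them stayed under 10 CPM with both drugs. Their median log2FC was 1.17, with 82 genes beyond 2-fold. Against DMSO their median was 0.30 with SGC0946 and -0.94 with VTP50469. The 47 lower genes had medians of 41.7 CPM with DMSO, 39.8 CPM with SGC0946 and 58.5 CPM with VTP50469, a median log2FC of -0.58, and 10 genes beyond 2-fold. Over all 12140 tested genes the median log2FC was 0.01. No read was seen with VTP50469 for ENAH, C11orf96, P3H3 and LINC01305, which held 29, 23, 15 and 11 reads in the 3 SGC0946 libraries and are named here because of these values. A floor of 3 reads over the group puts ENAH, an actin regulator, at least 9.75-fold higher and C11orf96 at least 7.75-fold higher with SGC0946.

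**Figure D1:**
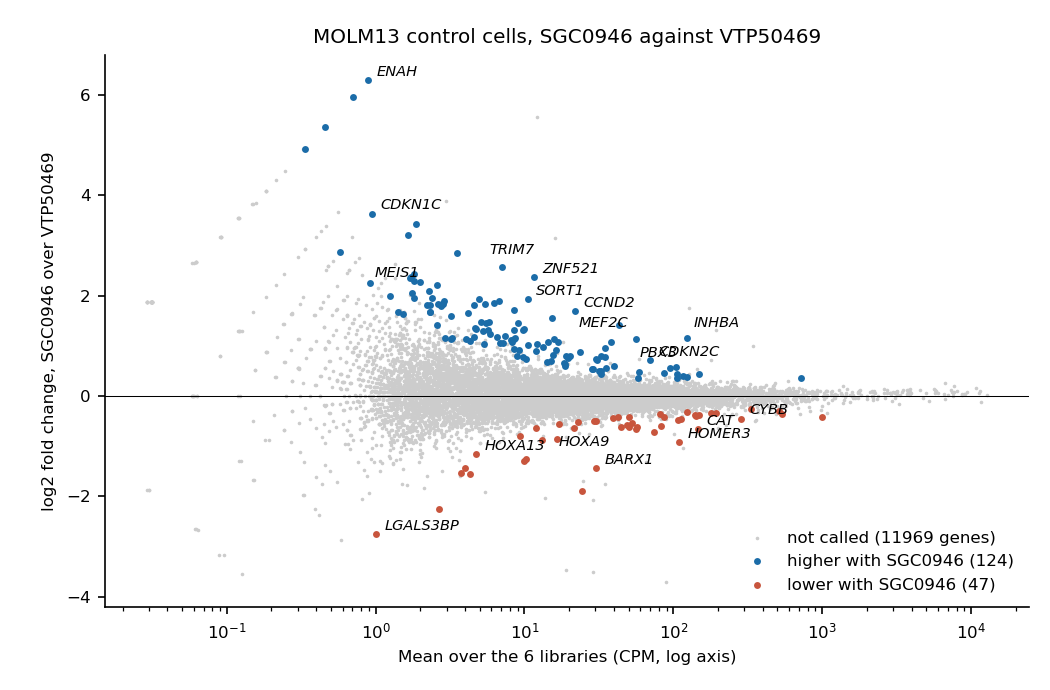
Each point is 1 of the 12140 tested genes in MOLM13 control cells, with the mean level over the 6 libraries on a log axis (CPM) and the log2 fold change of SGC0946 over VTP50469 on the vertical axis. The 124 genes called higher with SGC0946 are blue, the 47 called lower are red, and the 4 blue points at the upper left had no read with VTP50469, so their height depends on the fit.

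The MLL fusion targets divided in the direct contrast. Several of the strongest targets were held lower by VTP50469, the HOXA genes were held lower by SGC0946, and most of the rest did not separate the drugs. MEIS1, a TALE homeobox protein that binds DNA together with HOXA9, lies at chr2:66433452-66573869 (GRCh38, plus strand). It measured 23.2, 24.5 and 19.1 CPM in the DMSO libraries, 2.99, 5.45 and 4.38 CPM with SGC0946 and 0.579, 0.54 and 1.57 CPM with VTP50469. Both drugs took MEIS1 far below DMSO, and the VTP50469 libraries were the lowest. MEIS1 was 4.6-fold higher with SGC0946 than with VTP50469 (log2FC 2.20 ± 0.36, SE, n = 3 libraries each, adjusted p = 0.00068 in edgeR).

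PBX3, another TALE homeobox partner of the HOX proteins, showed the same order. Its level was 185, 132 and 190 CPM with DMSO, 82.6, 76.7 and 72.3 CPM with SGC0946, and 36.3, 32.6 and 35.7 CPM with VTP50469, a 2.21-fold difference between the drugs (log2FC 1.15 ± 0.12, adjusted p = 7.2e-07). The other 3 tested TALE genes, MEIS2, PBX2 and PKNOX1, were not called, with log2FC values from -0.20 to -0.05. These are bulk measurements, in which fewer cells of a type and less RNA per cell cannot be told apart.

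MEF2C, a MADS-box transcription factor of early myeloid and lymphoid progenitors at chr5:88717117-88904257 (minus strand), measured 210, 247 and 196 CPM with DMSO. It fell to 55, 46.4 and 55 CPM with SGC0946 and to 23.0, 26.1 and 25 CPM with VTP50469. MEF2C was therefore 2.11-fold higher with SGC0946 (log2FC 1.07 ± 0.10, adjusted p = 1.3e-07), and no library of one drug reached the range of the other. ZNF521, a zinc-finger cofactor of haematopoietic progenitors, had the largest gap of the MLL targets: 58.8, 79.2 and 56.5 CPM with DMSO, 20.2, 18.8 and 19.6 CPM with SGC0946 and 3.28, 3.24 and 4.73 CPM with VTP50469 (log2FC 2.37 ± 0.19, adjusted p = 6.8e-09). EMB, an adhesion molecule of the immunoglobulin family, differed least. Its means were 160 ± 4.97 CPM with DMSO, 100 ± 4.77 CPM with SGC0946 and 72.7 ± 5.61 CPM with VTP50469 (SD, n = 3 each), a log2FC of 0.46 ± 0.09 (adjusted p = 0.0046), and without VTP50469 replicate 1 the adjusted p was 0.055.

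Other genes named as MLL targets did not separate the drugs. SOCS2, a feedback inhibitor of cytokine signalling, was taken from 19.6 CPM with DMSO to 3.78 CPM with SGC0946 and 2.6 CPM with VTP50469, and its log2FC between the drugs was 0.53 (95% interval -0.02 to 1.08, adjusted p = 0.53). For FOXP1, JMJD1C, ZEB2, TSC22D2 and LPXN the log2FC was 0.10, 0.14, 0.12, -0.01 and 0.26, and none was called. Against DMSO both drugs lowered FOXP1 and JMJD1C, while ZEB2 and TSC22D2 were not called with either drug. LPXN rose above DMSO with both (log2FC 0.67 with SGC0946 and 0.41 with VTP50469). In the list of 32 tested MLL fusion targets outside the HOXA and TALE genes, 3 were called higher (MEF2C, ZNF521 and EMB) and none lower. Over all tested genes the shares were 1.02% and 0.387%. In this list 23 had a positive log2FC, and the median was 0.11 against 0.01 over all genes. Under the replicate block, which pairs the libraries by number, CCNA1 of this list, a germline and leukaemia cyclin, was called lower (log2FC -0.38, adjusted p = 0.028, against 0.0676 without the block). CCNA1 was also called lower in DESeq2 and without DMSO replicate 2 or VTP50469 replicate 1 (adjusted p of up to 0.0431).

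**Figure D2:**
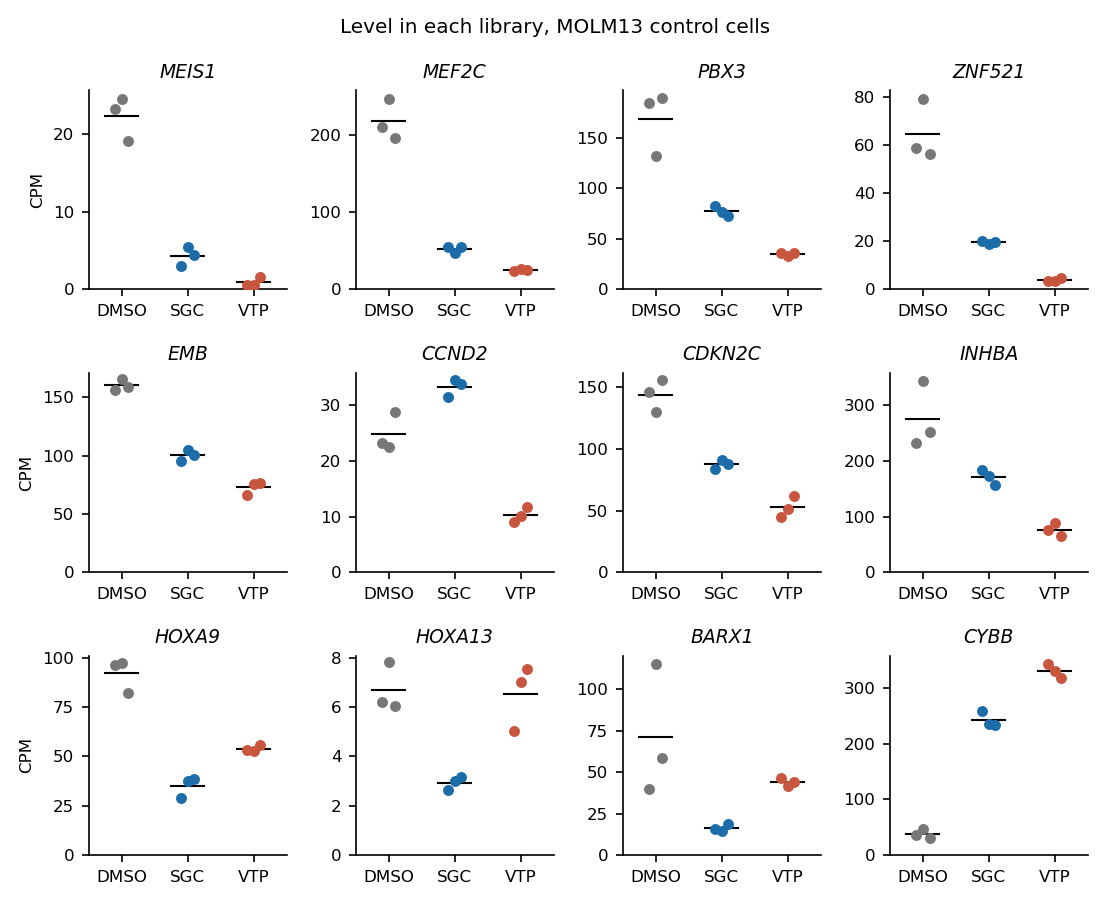
Level of 12 genes in each MOLM13 control library (CPM, linear axes from 0), with 3 points per treatment (SGC, SGC0946; VTP, VTP50469) and a line at the mean. In the upper 2 rows the VTP50469 libraries lie below the SGC0946 libraries, as for MEIS1 at 0.579 to 1.57 against 2.99 to 5.45 CPM, and in the bottom row they lie above, as for HOXA9 at 52.8 to 56 against 29.2 to 38.5 CPM.

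The HOXA cluster ran the other way. HOXA9, the central HOX gene of MLL-rearranged leukaemia (chr7:27162438-27175180, minus strand), measured 96.6, 97.7 and 82.3 CPM with DMSO, 29.2, 37.4 and 38.5 CPM with SGC0946 and 53.1, 52.8 and 56 CPM with VTP50469. SGC0946 left HOXA9 lower than VTP50469 in every library, by 1.54-fold (log2FC -0.62 ± 0.11, adjusted p = 0.0018). All 10 tested genes of the cluster had a negative log2FC, with a median of -0.57, and 3 were called lower, against 0.387% of all tested genes. HOXA9 and its partner MEIS1 were thus ordered oppositely by the drugs.

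HOXA13, at the 5′ end of the cluster, stood at 6.20, 7.82 and 6.04 CPM with DMSO, 2.62, 3.01 and 3.15 CPM with SGC0946 and 5.02, 7.03 and 7.53 CPM with VTP50469. Only SGC0946 took it below DMSO: its log2FC against DMSO was -1.18 with SGC0946 (adjusted p = 0.0026) and -0.02 with VTP50469 (adjusted p = 0.97), and without DMSO replicate 2 these were -1.06 and 0.10. The difference between the drugs was -1.16 ± 0.26 (adjusted p = 0.016), and the call was lost without any 1 of SGC0946 replicates 1 to 3 or VTP50469 replicates 2 and 3 and when only the 6 libraries were fitted, with an adjusted p of up to 0.103. The antisense transcript HOXA11-AS behaved alike, with means of 7.77 CPM with DMSO, 2.19 CPM with SGC0946 and 6.47 CPM with VTP50469 (log2FC -1.55, adjusted p = 0.014). It lost its call without SGC0946 replicate 2 or 3 or VTP50469 replicate 1 or 2, with an adjusted p of up to 0.0874. The strand setting of the counting is not given in the sources used here, so reads of HOXA11 and HOXA11-AS may not be fully separated.

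HOXA10 and HOXA11 fell with both drugs against DMSO and were lower still with SGC0946, but short of the threshold. HOXA10 gave 14.7 CPM with SGC0946 and 20.0 CPM with VTP50469 (log2FC -0.44, 95% interval -0.75 to -0.13, adjusted p = 0.21), and HOXA11 6.11 and 8.76 CPM (log2FC -0.52, interval -0.99 to -0.04, adjusted p = 0.42). HOXA3 and HOXA5 were near the limit of detection with SGC0946, at 0.296 and 0.608 CPM, and stood at 1.33 and 1.53 CPM with VTP50469. The non-coding transcript HOTAIRM1 at the 3′ end overlapped between the drugs, with a log2FC of -0.07 (interval -0.42 to 0.28).

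**Figure D3:**
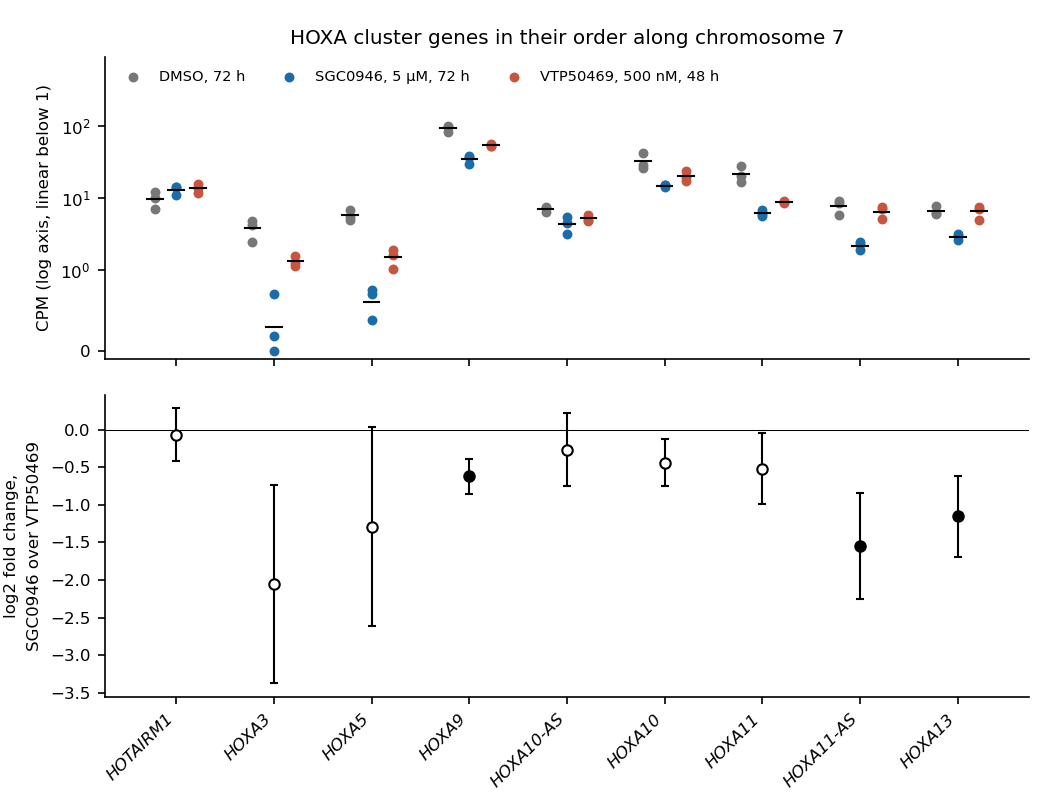
The plot shows 9 HOXA cluster genes in their order along chromosome 7, with the level in each library above (CPM, log axis that is linear below 1, line at the mean) and the log2 fold change of SGC0946 over VTP50469 with its 95% interval below. Filled symbols are the 3 called genes (HOXA9, HOXA11-AS and HOXA13), and all 9 estimates lie below 0, from -0.07 for HOTAIRM1 to -2.05 for HOXA3.

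Regulators of the G1 phase of the cell cycle were among the called genes, while general proliferation genes were not. CCND2, which encodes cyclin D2 and drives entry into the cycle, measured 23.2, 22.5 and 28.8 CPM with DMSO, 31.6, 34.6 and 33.8 CPM with SGC0946 and 9.07, 10.1 and 11.7 CPM with VTP50469. It rose above DMSO with SGC0946 (log2FC 0.42, adjusted p = 0.0034) and fell below it with VTP50469 (log2FC -1.27, adjusted p = 1.3e-09). The 3.22-fold difference between the drugs had the smallest adjusted p of the contrast (log2FC 1.69 ± 0.11, adjusted p = 5.4e-11). CDKN2C, the CDK4 and CDK6 inhibitor p18, went down with both drugs and further with VTP50469, from 144 CPM with DMSO to 87.5 and 52.9 CPM (log2FC 0.72 ± 0.12, adjusted p = 0.00104). CDKN1C, the inhibitor p57, was scarce, with 29 reads over the SGC0946 libraries against 2 over the VTP50469 libraries (log2FC 3.63 ± 0.62, adjusted p = 0.00096). Of the 8 tested D cyclins and CDK inhibitors these 3 were called higher and none lower, against 1.02% and 0.387% of all tested genes. None of the 31 tested proliferation genes was called, and their median log2FC was -0.07, with 23 of them negative. Without DMSO replicate 2, CCNB1 of this list was called lower (log2FC -0.32, adjusted p = 0.0214, against 0.104 with that library).

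In 10 called genes the drugs moved expression to opposite sides of DMSO, with each drug's own change called. Of these, 7 were up with SGC0946 and down with VTP50469 (TRIM7, SORT1, SOBP, CCND2, MAGEF1, FEZ1 and CD59) and 3 the reverse (NXF3, CAT and ENSG00000171282, which the annotation used here gives no symbol). Because both changes are measured from the same DMSO libraries, the values are given side by side. Without DMSO replicate 2 the count was 6, all of them among the 10, with TRIM7, SOBP, CCND2, FEZ1, CD59 and ENSG00000171282 remaining. TRIM7, a ubiquitin ligase, had means of 6.47 CPM with DMSO, 12.1 CPM with SGC0946 and 2.02 CPM with VTP50469, a log2FC of 0.91 and -1.67 against DMSO and of 2.58 ± 0.25 between the drugs (adjusted p = 1.7e-07). SORT1, the sorting receptor sortilin, measured 16.3, 17.9 and 16.3 CPM with SGC0946 and 3.09, 4.68 and 5.25 CPM with VTP50469, around a DMSO mean of 10.5 CPM (log2FC 1.94 ± 0.22, adjusted p = 2.2e-06). FEZ1, an adaptor for kinesin transport, had means of 46.1 CPM with DMSO, 63 CPM with SGC0946 and 23.8 CPM with VTP50469. CD59, which shields cells from complement, had means of 15, 21.7 and 9.92 CPM in the same order, and is named here from its place among the 10.

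Catalase (CAT), which breaks down hydrogen peroxide, was the most abundant of the 3 that went the other way. It measured 129, 154 and 135 CPM with DMSO, 104, 122 and 112 CPM with SGC0946 and 176, 187 and 174 CPM with VTP50469, so the drugs did not overlap and DMSO lay between them. Its log2FC between the drugs was -0.66 ± 0.08 (adjusted p = 1.7e-05), while the fall below DMSO was no longer called without DMSO replicate 2 (log2FC -0.23, adjusted p = 0.0784). ENSG00000171282 had a 3.72-fold difference, with 9.72, 10.2 and 10.8 CPM with SGC0946 and 34.5, 35.3 and 44.6 CPM with VTP50469 (adjusted p = 6.8e-09).

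Several genes for surface and secreted proteins were higher with SGC0946, and others were lower. Those named below as lower are IL32 (log2FC -1.29), CD82 (-0.72) and OSCAR (-0.64). No list of such genes was tested, so no direction is given for them as a group. INHBA, a subunit of activin A, measured 232, 345 and 252 CPM with DMSO, 184, 174 and 157 CPM with SGC0946 and 76.2, 88.6 and 64.4 CPM with VTP50469 (log2FC 1.17 ± 0.14, adjusted p = 6.2e-06). CSPG4, the proteoglycan NG2 used as a surface marker of MLL-rearranged leukaemia, had means of 24.9 CPM with DMSO, 14.1 CPM with SGC0946 and 5.59 CPM with VTP50469 (log2FC 1.33 ± 0.19, adjusted p = 7.3e-05). CD109, a membrane-anchored protein, stood at 12.1 CPM with SGC0946 and 4.83 CPM with VTP50469 (log2FC 1.32, adjusted p = 0.00104). The tetraspanin CD9 had a like difference (log2FC 1.32, adjusted p = 0.01005), which was lost without SGC0946 replicate 3 or VTP50469 replicate 1 or 2 (adjusted p of up to 0.0876). TMEM158, a membrane protein, measured 12.5, 7.89 and 11.4 CPM with SGC0946 and 1.74, 2.16 and 4.55 CPM with VTP50469 (log2FC 1.89 ± 0.33, adjusted p = 0.00109). INHBA, CSPG4, CD109, CD9 and TMEM158 were each lower with VTP50469 in all 3 libraries.

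HOMER3, a scaffold protein, was also clearly lower with SGC0946. It measured 58.5, 77.0 and 66.2 CPM with DMSO, 80.4, 71.4 and 76.8 CPM with SGC0946 and 136, 138 and 157 CPM with VTP50469, so that the VTP50469 libraries lay above all others (log2FC between the drugs -0.92 ± 0.09, adjusted p = 1.7e-07). BARX1, a homeobox gene, was ordered as the HOXA genes were, with means of 16.2 CPM with SGC0946 and 44.1 CPM with VTP50469 (log2FC -1.44 ± 0.29, adjusted p = 0.005). Its DMSO libraries spread from 39.9 CPM to 115 CPM in replicate 2. The tetraspanin CD82 was 1.65-fold lower with SGC0946 (adjusted p = 0.007, and 0.0526 without SGC0946 replicate 2). DZANK1 was 2.38-fold lower (adjusted p = 0.00018), and the long non-coding RNA LINC02169 was 1.83-fold lower (adjusted p = 0.0018). IL32, a cytokine gene, was 2.44-fold lower (adjusted p = 0.011), a call that was lost without SGC0946 replicate 1 or 2 or VTP50469 replicate 3 (adjusted p of up to 0.135). LMBR1 and REEP6 were 1.56-fold and 1.72-fold lower (adjusted p = 0.017 and 0.029). LMBR1 lost its call without SGC0946 replicate 1 or 3 or VTP50469 replicate 3, in DESeq2, with no filter on low counts and with only the 6 libraries. REEP6 lost its call without any library but VTP50469 replicate 2 and with only the 6 libraries.

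Part of the myeloid maturation genes rose with each drug, and 3 azurophil granule genes and CYBB were higher with VTP50469. CYBB, the catalytic subunit of the phagocyte oxidase, went from 36.5, 46.3 and 30.2 CPM with DMSO to 259, 236 and 234 CPM with SGC0946 and 343, 331 and 318 CPM with VTP50469. The 2 drugs shared most of this rise, and the remaining difference was 1.36-fold (log2FC -0.45 ± 0.10, adjusted p = 0.017). That call was lost without SGC0946 replicate 2 or 3 or VTP50469 replicate 1 or 2 (adjusted p of up to 0.0919). Of 9 tested genes of mature neutrophils 8 rose with each drug against DMSO, where 7.23% of all tested genes rose with SGC0946 and 8.19% with VTP50469, and none of the 9 was called between the drugs. Of the 14 tested genes of the azurophil granules, the first granules made by myeloid precursors, 7 rose with SGC0946 and 9 with VTP50469 against DMSO, and 3 were called lower with SGC0946 than with VTP50469. The median log2FC of the 14 between the drugs was -0.25. Over all tested genes 0.387% were called lower.

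RNASE2, a granule ribonuclease, was the most abundant of these at 848, 830 and 867 CPM with SGC0946 and 1149, 1112 and 1130 CPM with VTP50469, from a DMSO mean of 488 CPM (log2FC -0.41 ± 0.06, adjusted p = 0.00031). Its pseudogene RNASE2CP was called too (adjusted p = 0.029), and reads could be split between the copies. That call was lost without SGC0946 replicate 2 or 3 or VTP50469 replicate 1 or 3, with no filter on low counts and with only the 6 libraries (adjusted p of up to 0.21). BPI, a bactericidal granule protein, stood at 1.88 CPM with DMSO, 11.8 CPM with SGC0946 and 21.2 CPM with VTP50469 (log2FC -0.85, adjusted p = 0.041), and its call was lost without any 1 of the 6 libraries (adjusted p of up to 0.27). CTSG, the protease cathepsin G, stood at 130 and 168 CPM with the drugs (log2FC -0.37, adjusted p = 0.03), and its call was lost without SGC0946 replicate 2 or 3 or VTP50469 replicate 1 or 3 and with no filter on low counts (adjusted p of up to 0.143). MMP25, a membrane-bound metalloprotease of neutrophils, was higher with SGC0946, with means of 1.42 CPM with DMSO, 10.4 CPM with SGC0946 and 4.51 CPM with VTP50469 (log2FC 1.20 ± 0.22, adjusted p = 0.0018). CHI3L1, a secreted protein of the specific granules, was called lower under the replicate block (log2FC -0.34, adjusted p = 0.0111, against 0.0626 without it). It was also called lower in DESeq2 (adjusted p = 0.0187), with either other filter on low counts, with only the 6 libraries and without DMSO replicate 2 (adjusted p of up to 0.0471). The granule genes therefore did not all lie on 1 side.

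In the remaining lists at most 1 gene was called in each direction. BCOR, itself a PRC1.1 subunit, was lower with SGC0946, at 36.6, 44.2 and 38.7 CPM against 60.6, 60.2 and 61.3 CPM with VTP50469 and 52.2 CPM on average with DMSO (log2FC -0.61 ± 0.09, adjusted p = 0.0002). It was 1 of 21 tested PRC1.1 and PRC2 subunits to be called, and PCGF1 was not, at 8.72 and 7.29 CPM (log2FC 0.26, interval -0.25 to 0.77). The transcripts of the drug targets did not separate the drugs either, with a log2FC of -0.08 (interval -0.29 to 0.13) for DOT1L and -0.19 (interval -0.42 to 0.04) for MEN1. BATF3, a transcription factor of dendritic cells, was 3.81-fold higher with SGC0946 (adjusted p = 6.6e-05), while 5 of the 13 dendritic cell markers in the table, among them XCR1 and LAMP3, had no read with SGC0946. The summed level of those 13 markers was 21.4 to 25.9 CPM with SGC0946 and 13.3 to 16.9 CPM with VTP50469, and their part in the result was not tested. Of the 14 tested monocyte and macrophage genes, MS4A6A was called higher (log2FC 0.43, adjusted p = 0.004), and under the replicate block also CTSL, a lysosomal protease (log2FC 0.82, adjusted p = 0.0343). CTSL was also called higher in DESeq2, with no filter on low counts and without DMSO replicate 2 or VTP50469 replicate 3 (adjusted p of up to 0.0313).

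The pro-death BCL2 family genes HRK and BIK were called in opposite directions, and both calls rested on single libraries. HRK was higher with SGC0946 at 2.62, 0.94 and 1.05 CPM against 0.386, 0.18 and 0.35 CPM (adjusted p = 0.028, and up to 0.428 without SGC0946 replicate 1 or any 1 VTP50469 replicate or in DESeq2). BIK was 1.41-fold lower (adjusted p = 0.034, lost without any library but VTP50469 replicate 2 and with only the 6 libraries, adjusted p of up to 0.311). HK2, the first enzyme of glycolysis, was the only call among 21 glycolysis genes (log2FC 0.54, adjusted p = 0.016, up to 0.176 without SGC0946 replicate 3 or VTP50469 replicate 2 or 3 or with only the 6 libraries), and under the replicate block PFKL, the liver phosphofructokinase, was called lower (log2FC -0.32, adjusted p = 0.0454). ASAH1, the lysosomal acid ceramidase, was the only call among 24 lysosome genes (log2FC -0.38, adjusted p = 0.0079, up to 0.0592 without SGC0946 replicate 2 or 3 or VTP50469 replicate 1). No gene was called among the tested members of the lists for p53 targets (17), cholesterol synthesis (22), the ATF4 response (23), interferon response (13), MHC class II (4) or cytosolic ribosomal proteins (76), of which 68 had a small positive log2FC with a median of 0.06. In some alternatives genes of these lists passed. RPS18 was called higher with only the 6 libraries (adjusted p = 0.0098) and without DMSO replicate 2 (adjusted p = 0.0086). SLC7A5 of the ATF4 list was called lower with no filter on low counts (adjusted p = 0.0373). The myeloid factor IRF8 was called higher in both of these fits and without a filter (adjusted p of up to 0.0204, against 0.115).

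In PCGF1 KO and BCOR KO cells fewer genes were called between the drugs than in control cells. The knockout libraries are separate from the 6 control libraries but were fitted in the same model. There were 105 calls (0.865%) in PCGF1 KO cells and 131 (1.08%) in BCOR KO cells. These fell to between 54 and 68 without any 1 PCGF1 KO library but VTP50469 replicate 3, and to between 79 and 87 without any 1 BCOR KO library but VTP50469 replicate 3. In PCGF1 KO cells the count rose to 173 without control DMSO replicate 2, and under the replicate block it was 158. Of the 124 genes higher in control cells, 111 (89.5%) had the same sign in PCGF1 KO cells and 121 (97.6%) in BCOR KO cells, against 49.9% and 51% of all tested genes. Called in both were 30 genes with PCGF1 KO (24.2% of the control list and 46.2% of the knockout list) and 38 with BCOR KO (30.6% and 50.7%). The size was smaller, with a median log2FC of 0.40 in PCGF1 KO and 0.60 in BCOR KO cells against 1.17 in control cells, where the genes were selected. Of the 47 lower genes, 41 (87.2%) and 46 (97.9%) kept their sign.

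A few MLL targets were called between the drugs in control cells and in both knockouts. In all 3 backgrounds 22 genes were called higher and 8 lower, among them MEIS1 (log2FC 1.90 in PCGF1 KO and 1.40 in BCOR KO cells), MEF2C (0.99 and 0.84), PBX3 (1.38 and 1.37) and ZNF521 (2.39 and 2.72). FEZ1 (0.69 and 1.51), CSPG4 (0.79 and 1.49), CD109 (1.29 and 2.41) and INHBA (1.22 and 2.36) were also among the 22. CYBB (-1.07 and -0.91), HOMER3 (-0.73 and -0.97) and OSCAR, an immunoglobulin-like receptor of myeloid cells (-1.12 and -0.96), were among the 8 lower genes. In control cells the call of OSCAR (adjusted p = 0.022) was lost without SGC0946 replicate 1 or 2 or any 1 VTP50469 replicate (adjusted p of up to 0.164). HOXA9 was not called in either knockout, with a log2FC of -0.09 in PCGF1 KO and 0.11 in BCOR KO cells. The difference of HOXA9 from control cells did not pass the threshold, at 0.53 (95% interval 0.21 to 0.85, adjusted p = 0.31) with PCGF1 KO and 0.73 (interval 0.41 to 1.05, adjusted p = 0.098) with BCOR KO.

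In MV4;11 control cells the drugs differed by far more genes, 1025 of 10988 tested (9.33%), and the leading MLL targets were separated further. MEIS1 measured 17.1, 15.2 and 10.7 CPM with SGC0946 and 0.644, 2.14 and 1.06 CPM with VTP50469 (log2FC 3.50 ± 0.31, adjusted p = 4.5e-13). MEF2C measured 49.6, 45.3 and 45.9 CPM against 0.859, 3.22 and 2.66 CPM (log2FC 4.43 ± 0.21, adjusted p = 4.9e-23). CYBB was 6.82, 7.33 and 4.48 CPM against 47.2, 38.3 and 44.2 CPM, again higher with VTP50469 (log2FC -2.79). Of the 91 genes of the higher list that were tested there, 69 (75.8%) had the same sign and 30 were called in the same direction, with 1 called in the opposite one. Of the 44 tested genes of the lower list, 31 (70.5%) had the same sign, 11 were called in the same and 3 in the opposite direction. HOXA9 stood at 9.72 and 13.9 CPM (log2FC -0.51, adjusted p = 0.083). HOXA10 had a log2FC of -0.04, while HOXA11, HOXA13 and HOXA11-AS lay on the opposite side from MOLM13 cells, at 0.43, 0.82 and 0.41. None of these HOXA genes was called. The TMM factors of the MV4;11 libraries differed between the drugs, 1.01 to 1.20 with SGC0946 and 0.649 to 0.852 with VTP50469, and with scaling by library size alone the median of all genes shifted to 0.53. MEIS1, MEF2C, PBX3, EMB and CYBB kept their direction under that scaling, while HOXA9 (log2FC 0.02) and CAT did not. With library-size scaling HOXA10, HOXA11 and HOXA13 were called higher with SGC0946 (log2FC 0.49, 0.95 and 1.35, adjusted p = 0.015, 3.8e-05 and 0.013).

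**Figure D4:**
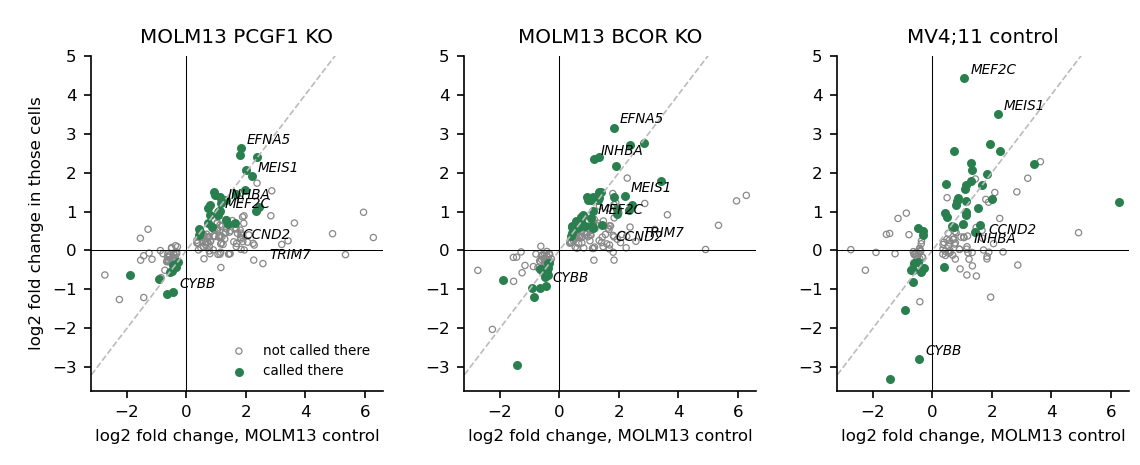
Log2 fold change of SGC0946 over VTP50469 for the 171 genes called in MOLM13 control cells (horizontal axis) against the same contrast in PCGF1 KO, BCOR KO and MV4;11 control cells (vertical axis, 1 panel each). Green points were also called in those cells and the dashed line marks equal values. MEIS1 and MEF2C lie far above the line in MV4;11 cells at 3.50 and 4.43, while TRIM7 and CCND2 lie near 0 in both knockouts.

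The difference between the drugs itself differed between PCGF1 KO and control cells in 13 genes (0.107% of those tested) and between BCOR KO and control cells in 7 (0.0577%). Without control DMSO replicate 2 these counts were 26 and 12, the first was 7 without control SGC0946 replicate 1, and the second was 4 without control SGC0946 replicate 3. TRIM7, NAT8L, CCND2 and PLEKHO1 were in both sets, and in each of them the separation of the drugs seen in control cells was reduced or lost in the knockouts. CCND2 gives the pattern in every library. With SGC0946 it measured 164, 174 and 171 CPM in PCGF1 KO and 102, 115 and 118 CPM in BCOR KO cells. With VTP50469 it measured 147, 148 and 154 CPM in PCGF1 KO and 100, 102 and 102 CPM in BCOR KO cells. CCND2 thus stood at a high level with either drug in both knockout populations. The drug difference there was a log2FC of 0.18 and 0.14, against 1.69 in control cells. The difference of the contrast was -1.51 ± 0.13 (adjusted p = 1.5e-07) with PCGF1 KO and -1.55 ± 0.14 (adjusted p = 1.1e-07) with BCOR KO.

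TRIM7 went from 12.1 and 2.02 CPM with SGC0946 and VTP50469 in control cells to 22 and 27.7 CPM in PCGF1 KO and 20.9 and 17.8 CPM in BCOR KO cells (differences -2.91 and -2.34, adjusted p = 2.7e-06 and 0.00021). NAT8L, which makes N-acetylaspartate, went from 8.54 and 2.37 CPM to 19.1 and 18.8 CPM and to 25.3 and 30.0 CPM (differences -1.81 and -2.09, adjusted p = 0.00035 and 3.5e-05). PLEKHO1, a membrane-associated adaptor, went from 13.3 and 4.84 CPM to 77.4 and 81.9 CPM and to 71.0 and 56 CPM (differences -1.53 and -1.10, adjusted p = 3.1e-05 and 0.008), and the second was lost without SGC0946 replicate 3 or VTP50469 replicate 1 of the control cells or with only the groups compared (adjusted p of up to 0.0864). In each of these genes the drug difference was smaller in the knockouts, where the level was higher with both drugs.

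INHBA and SATB1 had a larger drug difference in a knockout. In BCOR KO cells INHBA measured 154, 151 and 152 CPM with SGC0946 and 29.2, 31.1 and 28.8 CPM with VTP50469, a log2FC of 2.36 against 1.17 in control cells (difference 1.19 ± 0.20, adjusted p = 0.008). INHBA was also lower in BCOR KO than in control cells with DMSO (log2FC -1.34, adjusted p = 6.9e-08). SATB1, a chromatin organiser that did not separate the drugs in control cells (log2FC 0.11), differed in PCGF1 KO cells at 130 and 69.0 CPM (difference 0.80 ± 0.14, adjusted p = 0.0048). ENSG00000171282 lost part of its negative difference in both knockouts (1.26 and 1.14, adjusted p = 0.0048 and 0.0146). The first call was lost with only the groups compared, and the second without BCOR KO SGC0946 replicate 1 or 3, BCOR KO VTP50469 replicate 2, any 1 control SGC0946 replicate or control VTP50469 replicate 3 (adjusted p of up to 0.0999).

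For some genes the difference was called with 1 knockout and not the other, and the knockouts were not tested against each other. CD59 lost its drug difference in PCGF1 KO cells at 88.1 CPM with SGC0946 and 94.2 CPM with VTP50469 (difference -1.22, adjusted p = 0.0016). FGFR1, a growth factor receptor, measured 2.92 and 1.33 CPM in control cells and 34.3 and 52.1 CPM in BCOR KO cells, so that its order turned (difference -1.72, adjusted p = 0.024). MEGF6 was higher with VTP50469 in PCGF1 KO cells, at 1.48 and 13.7 CPM. In control cells MEGF6 was not called and its libraries overlapped, with means of 3.43 and 6.56 CPM (log2FC -0.93, adjusted p = 0.14, difference -2.30, adjusted p = 0.02). P3H3, ASIC1, TLCD3A, TBC1D4 and TNFSF13B made up the rest of the 13 with PCGF1 KO, and the calls of these genes, of MEGF6 and of FGFR1 were lost in between 5 and 15 of 20 alternatives.

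**Figure D5:**
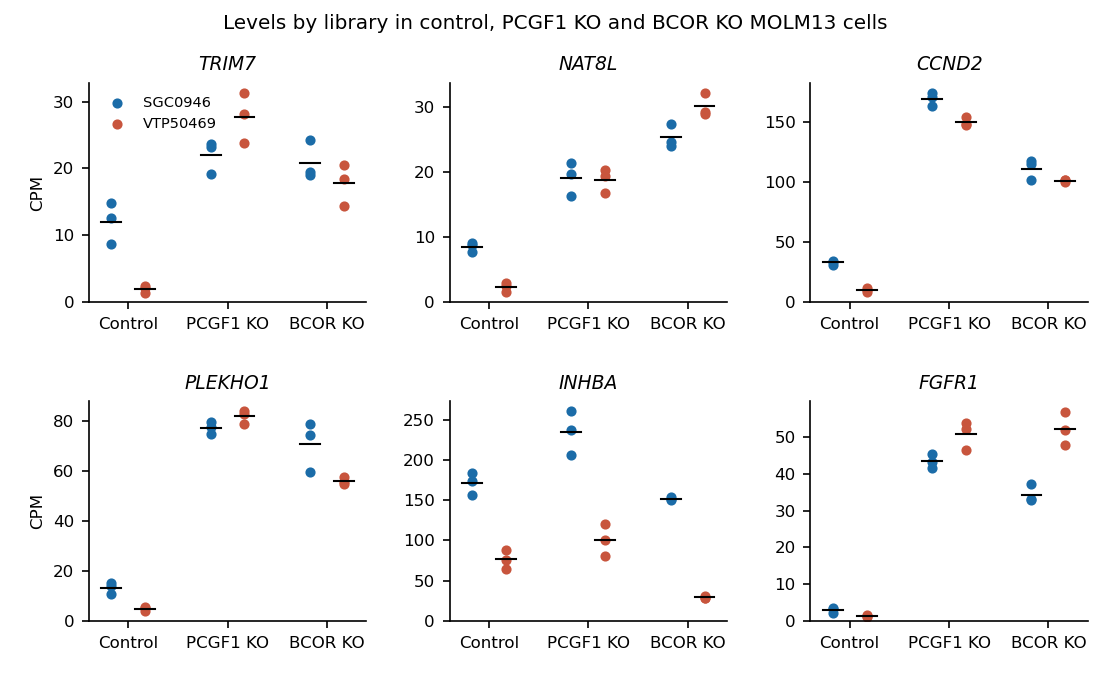
Level in each library (CPM, linear axes from 0, line at the mean) of 6 genes whose drug difference changed in a knockout, with SGC0946 in blue and VTP50469 in red. For CCND2 the control libraries lie at 9.07 to 34.6 CPM and the knockout libraries at 100 to 174 CPM with both drugs, while for INHBA the VTP50469 libraries of BCOR KO cells are the lowest at 28.8 to 31.1 CPM.

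Genes that were higher with SGC0946 in control cells were often changed in the knockouts with no drug present, upward among genes of low level and in both directions among the others. In DMSO, 1011 genes (8.33% of those tested) were higher in PCGF1 KO than in control cells and 492 (4.05%) were higher in BCOR KO cells. This comparison was added after seeing the data. The 6 libraries enter it through the filter, the scaling and the shared estimate of spread alone. Its calls and those of the direct contrast are therefore not fully independent. Among the 124 genes of the higher list, 60 (48.4%) were raised in PCGF1 KO and 44 (35.5%) in BCOR KO cells. Lowered were 17 (13.7%) and 16 (12.9%), against 5.43% and 2.99% of all tested genes. Among the 47 of the lower list the counts were 16 (34%) and 9 (19.1%). Without DMSO replicate 2 the higher list held 62 (50%) and 42 (33.9%), against 7.58% and 3.27% of all genes.

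Genes of low level weigh in this count, since a gene can pass the filter through the knockout libraries alone. Among the 116 higher genes with at least 2 CPM in 2 of the 6 libraries, 45.7% were raised in PCGF1 KO and 33.6% in BCOR KO cells, against 6.74% and 3.55% of the 11188 tested genes of that kind. Among the 67 higher genes at 10 CPM or more the raised shares were 34.3% and 22.4%, against 5.76% and 3.32%, and the lowered shares were 22.4% and 20.9%, against 6.78% and 3.8%, with a median log2FC of the knockout of 0.01 and -0.04. Among the 57 under 10 CPM the raised shares were 64.9% and 50.9%, against 13% and 5.39%, and the lowered shares 3.51% in each knockout. Read from the other side, 60 of the 1011 genes raised in PCGF1 KO cells (5.94%) and 44 of the 492 raised in BCOR KO cells (8.94%) were higher with SGC0946. A further 16 and 9 were lower, so most genes raised in the knockouts did not separate the drugs. The genes raised in PCGF1 KO and in BCOR KO cells had a median log2FC between the drugs of 0.13 and 0.11.

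Raised in both knockouts were 343 genes, of which 41 were higher and 5 lower with SGC0946, against 1.02% and 0.387% of all tested genes. Most of the 41 stayed under 10 CPM with both drugs in control cells, so the limit on genes of low level holds here too. CCND2 stood at 200 CPM in PCGF1 KO and 130 CPM in BCOR KO cells with DMSO, against 24.8 CPM in control cells. PLEKHO1 stood at 69.8 and 51 CPM against 6.01 CPM. For both genes the control cells kept a low level with DMSO and both drugs, far under that of the knockouts. MEIS1, MEF2C, PBX3 and ZNF521 were not among the raised genes.

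The targeted transcripts do not check the knockout labels, because a small edit need not remove the 3′ tags. PCGF1 stood at 5.39 CPM in PCGF1 KO and 7.74 CPM in control cells with DMSO (log2FC -0.52, interval -1.06 to 0.03), and BCOR stood at 105 CPM in BCOR KO and 52.2 CPM in control cells (log2FC 1.01, adjusted p = 5.0e-09).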

How the data were processed

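Expression was measured by 3′ RNA-seq, and 6 MOLM13 control libraries entered the direct contrast. The authors demultiplexed reads with bcl2fastq, trimmed them with bbmap, aligned them with STAR to the human genome (hg38 per the labels) and deposited raw counts per Ensembl gene. The tables end with summary lines of the kind htseq-count writes, and the counter, its strand setting, the annotation release and which of the named 3′ kits a library used are not given in the sources used here. Reads on no gene (38.6 to 41.1% in the 6 libraries) stayed out of library sizes and tests. Totals were 4283204 to 6330489 gene-assigned reads over the 27 MOLM13 libraries, and 3 counts in 1 library correspond to 0.525 to 0.579 CPM in the 6 libraries. Intervals and floors cover counting error and the spread between these libraries only.

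The 27 libraries were fitted together in edgeR 4.0.16 (R 4.3.3, quasi-likelihood test, TMM factors, 9 groups), on genes that reached 2 CPM in 2 or more libraries. P-values were two-sided and Benjamini-Hochberg adjusted over all tested genes, with a threshold of 0.05. Errors are standard errors unless given as SD. The 12 MV4;11 libraries used here, from control and PCGF1 KO cells given either drug, were fitted separately in 1 model. The PCGF1 KO libraries entered the MV4;11 contrast through the filter, the scaling and the estimate of spread alone. A further 36 per-sample columns of that table were not used. Per-gene positions came from GENCODE v44 (GRCh38), which matched 97.5% of the tested genes. DESeq2 1.42.0, other scalings and filters, the replicate block, a fit of only the groups compared, the looser limits of the methods (adjusted p under 0.1 and log2 fold change beyond 0.5) and leaving out each library were alternatives. The scripts were tested on simulated data.

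Members, gene lists and comparisons were chosen with earlier results of these data known. The genes named were 13 from the study, the 12 largest called differences in each direction at 10 CPM or more without overlap, up to 4 genes with the smallest adjusted p in each of 28 lists, up to 4 each way that moved to opposite sides of DMSO, and up to 5 per knockout whose drug difference changed most. Other genes are said to be named after their values were seen. The paper describes the 3 libraries of a group as biological replicates, without saying whether each came from a separate culture. The p-values measure the spread between these libraries, which may be technical. No pair of libraries was a duplicate. Same-numbered SGC0946 and VTP50469 libraries deviated together in control cells (r 0.165 to 0.25 across genes, against -0.209 to 0.018 for other pairs) and in BCOR KO cells (0.187 to 0.221). The numbers therefore paired these libraries by the limit of 0.1, while those of PCGF1 KO (0.061 to 0.325) and MV4;11 cells (0.00016 to 0.0385) did not reach it in every pair.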

Additional observations from a re-analysis of the deposited data

Results flagged for a closer look

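The drug difference changed between control and knockout cells in the following named genes, each by the test of the difference itself (edgeR's quasi-likelihood test with an interaction term, adjusted over all genes). With PCGF1 KO the log2 difference was -1.51 for CCND2, -2.91 for TRIM7, -1.81 for NAT8L and -1.53 for PLEKHO1, and with BCOR KO it was -1.55, -2.34, -2.09 and -1.10. In each case the knockout libraries stood above the control libraries given the same drug. ENSG00000171282 changed by 1.26 with PCGF1 KO and 1.14 with BCOR KO, and INHBA changed by 1.19 with BCOR KO.

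Other differences rested on low levels. P3H3 changed by -5.46 with PCGF1 KO, but the 3 control libraries with VTP50469 held no read of it, so the size depends on the fit. ASIC1 changed by -3.17, TLCD3A by -2.51 and MEGF6 by -2.30 with PCGF1 KO, and FGFR1 by -1.72 with BCOR KO, and each had under 7 CPM on average with both drugs in control cells. Their calls were lost in 5 of 20 alternatives for ASIC1, 6 for P3H3 and MEGF6, 8 for FGFR1 and 9 for TLCD3A, and FGFR1 reached an adjusted p of 0.395.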

How the results depend on the processing

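Of the 124 genes higher with SGC0946, 50 kept their call in every alternative, as did 17 of the 47 lower genes, and none of the 171 changed sign. Of the 50 called genes picked by the naming rules, 34 kept their call throughout. Of the called genes named outside those rules, LINC01305 kept its call in 8 of 13 alternatives and RNASE2CP in 8 of 14. The direct contrast gave 177 calls in DESeq2, 237 with no filter on low counts, 127 with only the 6 libraries fitted and 109 to 217 with 1 library left out. With the replicate block, which the numbers warrant in control and BCOR KO cells, the calls were 205 in control and 185 in BCOR KO cells, and in PCGF1 KO cells, where the pairing did not hold, the block gave 158. The block moved no other count by over 1.5 times. Among named genes it brought CCNA1, CD4, CHI3L1, CTSL and PFKL past the threshold in control cells (adjusted p from 0.0111 to 0.0487) and changed no other call. Without a filter the counts were 192 in PCGF1 KO and 220 in BCOR KO cells, 74 for the difference with PCGF1 KO and 55 for that with BCOR KO. The difference counts were 21 with PCGF1 KO in DESeq2 and 11 with BCOR KO at the looser limits of the methods. With 1 library left out they were 7 to 26 and 4 to 12, and the direct contrasts gave 54 to 173 calls in PCGF1 KO, 79 to 189 in BCOR KO and 743 to 939 in MV4;11 cells. The highest counts in the knockouts and for the differences were those without control DMSO replicate 2. In MV4;11 cells library-size scaling gave 6145 calls, of which 6022 were higher, with a median shift of 0.53. Fitting only the groups compared lowered the calls against DMSO to 505 with SGC0946 and 707 with VTP50469, and those of the knockouts with DMSO to 692 and 316, with fewer libraries in each fit. With 1 library left out these 4 counts were 1044 to 1686, 1457 to 2133, 1269 to 1784 and 596 to 1074. Library-size scaling turned the split of SGC0946 against DMSO from 878 higher and 700 lower to 724 and 927. Medians of 9 lists moved by more than the replicate spread in 14 values, and 375 did not. Genes under 10 CPM carry the widest errors at this depth.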

Other observations

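In both knockouts 22 genes were called between the drugs that were not called in control cells, and they were named after their values were seen. SOCS2, a feedback inhibitor of cytokine signalling, was higher with SGC0946 in PCGF1 KO (log2FC 1.06) and BCOR KO cells (0.81), against 0.53 in control cells. BCL2, the survival factor, had values of 0.36 and 0.40 against 0.09, and PLAC8 0.56 and 0.52 against 0.18. The myeloid genes MNDA (-0.74 and -1.01 against -0.45), CTSD, the lysosomal protease cathepsin D (-0.74 and -0.52 against -0.21), NFE2 (-0.53 and -0.65 against -0.33) and SLPI (-0.70 and -0.71 against -0.13) were lower with SGC0946 in both. Of the 22, the test of the difference from control cells passed for SATB1, MEGF6 and TNFSF13B with PCGF1 KO only, so for the other genes a difference between backgrounds was not shown.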
